A study of Mus musculus with 20 samples.

Results

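The neurotrophin genes Bdnf and Ntf3 and the receptor genes Ntrk2, Ntrk3 and Ngfr were followed through gene counts of mouse forebrain tissue. The 5 genes were chosen by name, as pairs of a ligand with its receptor plus the receptor they share, with earlier results of these data known but by a rule that uses no measured value. They are 5 of 34620 gene symbols in the count tables, and all 5 passed the filter on low counts that left 19192 genes to test. Each is listed once, at gene level, so full-length and truncated receptor transcripts of Ntrk2 and Ntrk3 are summed in these values.

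Neurotrophins are secreted growth factors that are made as precursors, cut by proteases, and released by neurons and by some non-neuronal cells. BDNF, the product of Bdnf, acts through the receptor tyrosine kinase TrkB, encoded by Ntrk2, and NT3, the product of Ntf3, acts mainly through TrkC, encoded by Ntrk3. Ngfr encodes p75, a receptor without kinase activity that binds all mature neurotrophins and their uncut forms, and that is known from developing neuroepithelium, glia, vessel-associated cells and cholinergic neurons. In the adult striatum, much of the BDNF protein is known to arrive through axons of cortical neurons, while TrkB is made by the medium spiny neurons themselves, and truncated TrkB is abundant in astrocytes.

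The series compared DNA methylation and RNA between stages and regions of the developing mouse brain, and 6 of its 20 samples are RNA libraries with gene counts. All 6 are labelled as brain tissue of male wild-type C57BL/6 mice, microdissected from frozen sections, with no age given. They are striatal precursors (SP, 1 library), hippocampal precursors (HP, 1 library), young medium spiny neurons of the striatum (yMSN, 1 library), young pyramidal neurons of the hippocampal CA fields (yCA, 1 library) and dorsal medium spiny neurons (dMSN, 2 libraries). The labels write the striatal neurons as medial spiny neurons. The other 14 samples, bisulfite libraries that include granule cells of Dnmt3a conditional mice, were not analysed here.

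Counts in genes numbered 31282185 in the shallowest library, HP, and 152347673 in the deepest, dMSN 1, and a count of 0 allowed at most 0.0249 to 0.0861 CPM (counts scaled to library size, with TMM factors throughout). No label says that dMSN 1 and dMSN 2 came from separate animals, so the spread between them may be technical. The p-values of the dMSN comparisons, and of the difference of the pairs, rest on that spread alone. Those of young against precursor and of striatal against hippocampal also take in how the single libraries depart from lineage and stage terms. No p-value measures a known spread between animals. Microdissected tissue holds more than the named cell type. The 8 medium spiny neuron markers summed to 6210 and 6170 CPM in dMSN 1 and 2, but to 134 CPM in yMSN and 141 CPM in yCA, so these markers did not set the young striatal library apart from the young hippocampal one. For the 6 pallial glutamatergic markers, of cortical and hippocampal origin, the sums were 561 CPM (yMSN) and 1100 CPM (yCA). Genes of non-neural tissue were also high in young tissue: the 9 skeletal muscle markers summed to 2360 CPM (yMSN) and 6380 CPM (yCA), against 12.1 CPM (SP) and 12.3 CPM (HP), and the 6 skin and oral epithelium markers to 408 CPM (yMSN) and 294 CPM (yCA), against 9.69 CPM (SP) and 24.1 CPM (HP). Despite the male label on each library, Xist was at 489 to 1090 CPM in SP, HP, yMSN and yCA and at 0.0333 and 0 CPM in dMSN 1 and 2. The 3 Y-linked genes had 0 counts in SP and yCA, 672 in HP, 2108 in yMSN, and 8258 and 9348 in dMSN 1 and 2.

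Promoter sequence is shown for the 3 genes whose levels in dMSN differed from both yMSN and SP. The windows run from 250 bases before to 50 bases after an annotated start, are taken from RefSeq on GRCm38.p6, and are written 5′ to 3′ on the gene's strand. Bdnf has several promoters, and the RefSeq table holds 7 windows for it, on chromosome 2. Bdnf window 3, at chr2:109692186-109692485 on the plus strand, is the only one of the 7 with CGTCA or its reverse complement TGACG, the core of the cAMP response element, and the match (capitals) starts at position -35. Ntrk2 has 1 window, at chr13:58806319-58806618 on the plus strand, and Ngfr has 1 window, at chr11:95587649-95587948 on the minus strand. In these last windows the capitals mark CpG dinucleotides, the sites that DNA methylation uses.
Bdnf window 3: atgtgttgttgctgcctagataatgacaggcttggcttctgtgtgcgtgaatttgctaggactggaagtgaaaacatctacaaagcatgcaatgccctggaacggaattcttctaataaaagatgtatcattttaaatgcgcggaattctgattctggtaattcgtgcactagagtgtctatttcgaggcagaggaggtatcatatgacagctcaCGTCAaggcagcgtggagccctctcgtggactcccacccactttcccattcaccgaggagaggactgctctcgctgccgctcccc
Ntrk2 window: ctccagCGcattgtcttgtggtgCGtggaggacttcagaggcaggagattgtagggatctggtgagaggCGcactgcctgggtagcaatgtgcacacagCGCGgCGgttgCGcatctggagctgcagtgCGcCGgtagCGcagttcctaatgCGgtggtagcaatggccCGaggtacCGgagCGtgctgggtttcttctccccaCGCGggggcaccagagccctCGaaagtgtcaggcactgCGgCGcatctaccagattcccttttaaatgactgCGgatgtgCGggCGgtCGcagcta
Ngfr window: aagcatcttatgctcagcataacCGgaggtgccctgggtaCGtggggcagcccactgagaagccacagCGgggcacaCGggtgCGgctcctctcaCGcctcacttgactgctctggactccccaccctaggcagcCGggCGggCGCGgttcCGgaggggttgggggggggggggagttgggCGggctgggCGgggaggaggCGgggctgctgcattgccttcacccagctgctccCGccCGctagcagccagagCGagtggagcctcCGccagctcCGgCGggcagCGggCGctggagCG
The core occurred in 20.8% of all 32851 RefSeq promoter windows, and the full palindrome TGACGTCA in 1.79%. A match in a Bdnf window is therefore a description, and whether it is a site in use was not tested. The Ntrk2 and Ngfr windows each held 23 CpG, where the median window held 7 and 78.5% of windows held fewer than 23. The 7 Bdnf windows held between 2 and 13 CpG, and the 2 Ntf3 windows 12 and 17. Ntrk3 lies on chromosome 7. Gene-level counts sum the transcripts of all promoters, so they do not say which Bdnf promoter was in use.

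The ligand transcripts behaved differently from each other. Bdnf stayed low through the precursor and young libraries and was several-fold higher in both dMSN libraries, while Ntf3 stayed within a narrow range in every library. Bdnf had 2.64 CPM in SP, 5.46 CPM in HP, 2.85 CPM in yMSN, 3.44 CPM in yCA, and 16.5 and 22.5 CPM in dMSN 1 and 2. Both dMSN libraries lay above all 4 others, with a mean of 19.5 ± 4.25 CPM (SD, n = 2) resting on 1988 and 2611 counts, whereas the other libraries held 105 to 190 counts. At the low end, SP and yMSN did not differ beyond counting error, with a log2 ratio of yMSN over SP of 0.11 (95% counting interval -0.28 to 0.50), nor did yMSN and yCA, with a log2 ratio of -0.27 (-0.64 to 0.09). All such intervals cover counting error only, and HP, SP, yMSN and yCA have no replicates.

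Ntf3 had 1.89 CPM in SP, 3.65 CPM in HP, 2.90 CPM in yMSN, 2.57 CPM in yCA, and 3.24 and 2.71 CPM in dMSN 1 and 2. Its highest and lowest libraries were the 2 precursors, 1.93-fold apart, and the dMSN libraries, at 2.98 ± 0.376 CPM (SD, n = 2), fell inside the range of the others. The lowest library, SP, held 75 counts. Skeletal muscle, a known source of NT3 in development, had marker sums of 2360 and 6380 CPM in yMSN and yCA, against 12.1 CPM in SP and 12.3 CPM in HP. Ntf3 in both young libraries lay above SP and below HP, and the part of muscle in it was not tested.

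**Figure D1:**
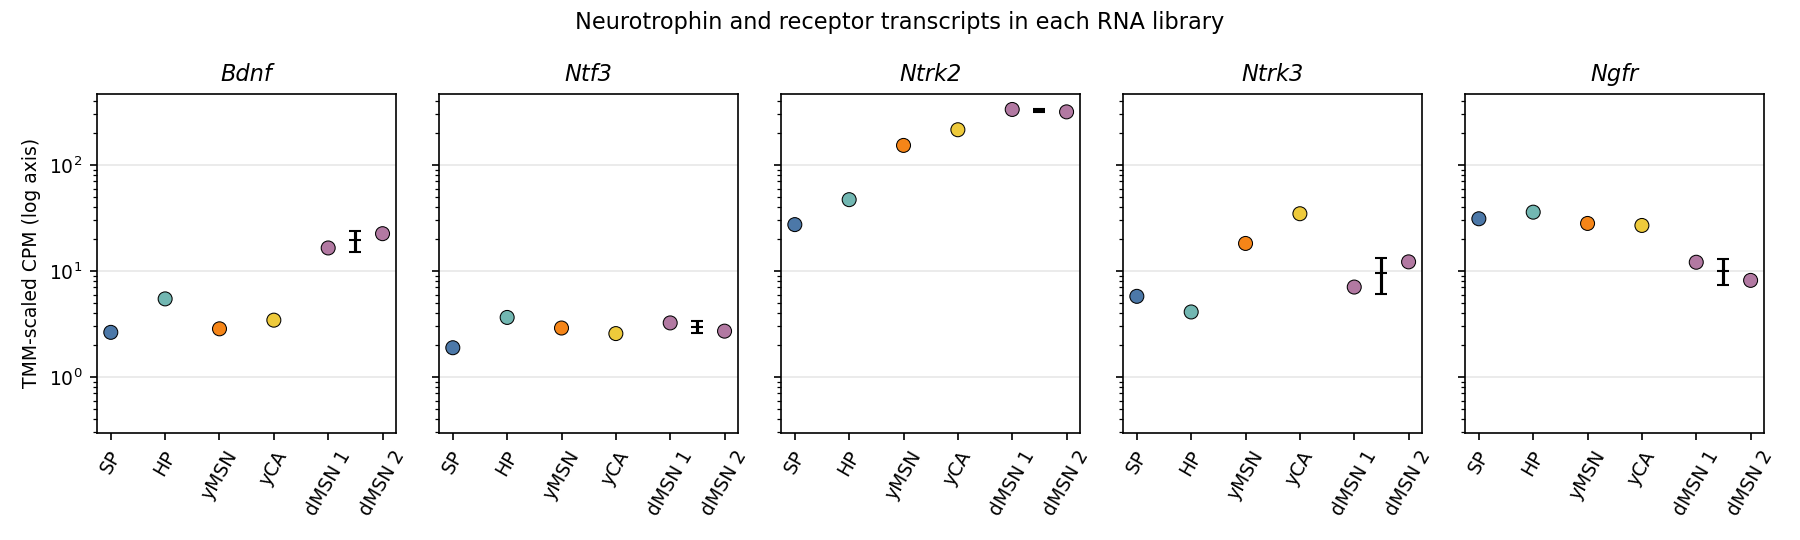
TMM-scaled CPM (log axis) of Bdnf, Ntf3, Ntrk2, Ntrk3 and Ngfr in each of the 6 RNA libraries, 1 point a library, with the dMSN mean and SD (n = 2) as a bar. Bdnf stands at 16.5 and 22.5 CPM in dMSN and at no more than 5.46 CPM elsewhere, Ntrk2 climbs through the stages, Ntrk3 peaks in the young libraries, and Ngfr is lowest in dMSN.

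The receptor transcripts followed 3 separate courses. Ntrk2 was low in precursors, higher in young tissue and highest in dMSN. Ntrk3 was highest in young tissue, and Ngfr was lowest in dMSN. Ntrk2 had 27.4 CPM in SP, 47.1 CPM in HP, 153 CPM in yMSN, 215 CPM in yCA, and 334 and 317 CPM in dMSN 1 and 2. The 3 stages did not overlap, and the dMSN pair lay close together at 326 ± 11.9 CPM (SD, n = 2). These are tissue levels, in which a different share of cells with the receptor and a different amount of RNA per cell cannot be told apart.

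Ntrk3 had 5.77 CPM in SP, 4.11 CPM in HP, 18.2 CPM in yMSN, 34.7 CPM in yCA, and 7.06 and 12.2 CPM in dMSN 1 and 2. The dMSN libraries lay between the precursor and young libraries and differed more from each other than for Ntrk2, at 9.61 ± 3.6 CPM (SD, n = 2). TrkC is known mainly as a receptor of neurons, with kinase-free forms that glia also make. Ngfr had 31.1 CPM in SP, 35.9 CPM in HP, 28.1 CPM in yMSN, 26.9 CPM in yCA, and 12.1 and 8.16 CPM in dMSN 1 and 2. The precursor and young libraries spanned a narrow range of 26.9 to 35.9 CPM, yMSN and yCA did not differ beyond counting error (log2 ratio 0.06, interval -0.06 to 0.18), and both dMSN libraries lay below all 4 others.

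In young tissue compared with precursors, the transcripts of both Trk receptors rose, by 5.05-fold for Ntrk2 and 5.15-fold for Ntrk3, while neither ligand nor Ngfr passed the test. The fit took yMSN and yCA against SP and HP with lineage as a term, and a gene was called at an adjusted p below 0.05 over all 19192 genes (edgeR quasi-likelihood test, Benjamini-Hochberg). Changes are on the log2 scale. Ntrk2 rose by 2.34 (SE 0.167, adjusted p = 0.0018), from single ratios of 2.48 for yMSN over SP (interval 2.39 to 2.58) and 2.19 for yCA over HP (2.12 to 2.27). Ntrk3 rose by 2.36 (SE 0.471, adjusted p = 0.016), and its ratio was larger in the hippocampal pair. That ratio was 3.07 for yCA over HP (2.83 to 3.34) and 1.65 for yMSN over SP (1.45 to 1.88).

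Bdnf differed by -0.28 (SE 0.327, adjusted p = 0.54), Ntf3 by 0.05 (SE 0.406, adjusted p = 0.93) and Ngfr by -0.28 (SE 0.250, adjusted p = 0.42) between young and precursor tissue in the edgeR fit, none beyond the spread between libraries. Of all genes tested, 35.4% were called, 21.7% higher and 13.7% lower, beside 2 of the 5 named genes, both higher, a share near that background. The median change of the 5 genes was 0.05, beside 0.10 over all genes tested. Ntrk3 changed by 1.65 without HP, 1.55 without yCA, 3.08 without SP and 3.08 without yMSN, and its call held in each of these fits. The sum of the neuron markers moved with the receptors, though Nefl was lower in yMSN, at 33.7 CPM, than in SP, at 139 CPM. The part of these markers in the rise was not tested. The 5 neuron markers summed to 1440 CPM in yMSN and 2110 CPM in yCA, against 829 CPM (SP) and 464 CPM (HP). The 8 astrocyte markers summed to 552 and 463 CPM in yMSN and yCA, against 281 and 331 CPM in SP and HP, and none of either list was at 0. Among the astrocyte markers Gja1 was lower, at 61 CPM in yCA against 251 CPM in HP, and at 156 CPM in yMSN against 167 CPM in SP.

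Between striatal and hippocampal libraries, no named gene passed the test. Ntrk2 came nearest, lower in striatal libraries by a log2 value of -0.63 (SE 0.160, unadjusted p = 0.0094, adjusted p = 0.99 by edgeR). It was lower in SP than HP, at -0.78 (interval -0.89 to -0.67), and lower in yMSN than yCA, at -0.49 (-0.54 to -0.44). Bdnf was at -0.66 (SE 0.328), Ntf3 at -0.38 (SE 0.407), Ntrk3 at -0.24 (SE 0.453) and Ngfr at -0.07 (SE 0.250), each with an adjusted p of 1. The background was 0% called by edgeR, with 826 genes at an unadjusted p below 0.05, 60 genes called by DESeq2 and 0 by limma voom, so a miss by these 5 genes says little about them.

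The pairs did not share a precursor-to-young direction for the ligands, and in Ntf3 both intervals lay clear of 0 on opposite sides. Bdnf did not differ beyond counting error in the striatal pair and was lower in yCA than in HP. It was at 0.11 for yMSN over SP (interval -0.28 to 0.50) and at -0.66 for yCA over HP (-0.99 to -0.34). Ntf3 was at 0.61 for yMSN over SP (0.20 to 1.05) and at -0.50 for yCA over HP (-0.90 to -0.11). In both cases HP was the high library of its pair. It held the highest Bdnf of the 4 early libraries and the highest Ntf3 of all 6. The difference of the pairs was tested in the fit with 1 mean per cell group, whose spread comes from the dMSN pair alone. It did not pass for any of the 5 genes, with adjusted p = 0.56 for Bdnf, 0.43 for Ntf3, 0.80 for Ntrk2, 0.18 for Ntrk3 and 0.88 for Ngfr by edgeR, where 5.20% of all genes passed.

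In dMSN compared with yMSN, Bdnf and Ntrk2 were higher, Ngfr was lower, and Ntf3 did not pass the test. Bdnf rose by 2.77 on the log2 scale (SE 0.349, 6.84-fold, adjusted p = 1.9e-05, edgeR), and Ntrk2 by 1.09 (SE 0.211, 2.13-fold, adjusted p = 0.00061). Ngfr fell by 1.47 (SE 0.255, adjusted p = 0.00025). Ntf3 differed by 0.04 (SE 0.367, adjusted p = 0.94). In this fit the single yMSN library is assumed to vary like the dMSN pair.

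Ntrk3 was lower in dMSN than in yMSN by a log2 value of -0.92 (SE 0.310, adjusted p = 0.019, edgeR), which the spread within dMSN made uncertain. Without dMSN 1 the change was -0.58 and without dMSN 2 it was -1.36. The call ended with DESeq2 (-0.87, adjusted p = 0.10), with limma voom (-0.98, adjusted p = 0.065) and with lineage and stage as terms (-1.31, adjusted p = 0.073). The calls of Bdnf, Ntrk2 and Ngfr held in each alternative that gave a test. Background calls were frequent in this comparison, at 67.5% of all genes, 32.1% higher and 35.4% lower, beside 4 of the 5 named genes, 2 in each direction. That share is near the background and is no result about these genes.

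Over the whole striatal course, dMSN compared with SP, the change was largest for Ntrk2 among the 5 genes, and Bdnf and Ngfr moved as they did against yMSN. Ntrk2 rose by 3.57 on the log2 scale (SE 0.245, 11.9-fold, adjusted p = 6e-08, edgeR), Bdnf rose by 2.88 (SE 0.353, 7.38-fold, adjusted p = 1.1e-05) and Ngfr fell by 1.62 (SE 0.254, adjusted p = 9.3e-05). Ntf3, at 0.66 (SE 0.385, adjusted p = 0.14), and Ntrk3, at 0.74 (SE 0.337, adjusted p = 0.067), did not pass. Of all genes tested, 72.1% were called, 39.1% higher and 33.1% lower, beside 3 of the 5, 2 higher and 1 lower. This comparison shares its dMSN libraries with the one against yMSN.

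Several marker lists moved with these changes, and their part in them was not tested. The steepest step among the glial lists was that of the oligodendrocyte lineage, whose 7 markers summed to 7490 and 6420 CPM in dMSN 1 and 2, against 230 CPM in yMSN and 161 CPM in SP. The 5 microglia markers summed to 261 and 260 CPM in dMSN 1 and 2, against 55.6 CPM in yMSN and 33.3 CPM in SP. Beside Bdnf, which cortical and hippocampal glutamatergic neurons are known to make, the 6 pallial glutamatergic markers summed to 1170 and 1880 CPM in dMSN 1 and 2, against 561 CPM in yMSN and 30.1 CPM in SP, with none at 0. Slc17a7, the vesicular glutamate transporter of cortical neurons, was at 936 and 1490 CPM in dMSN 1 and 2, against 33.3 CPM in yMSN and 1.36 CPM in SP. Beside Ntrk2, the 8 astrocyte markers summed to 3610 and 3510 CPM in dMSN 1 and 2, against 552 CPM in yMSN and 281 CPM in SP. The 6 interneuron and cholinergic markers summed to 1290 and 1210 CPM in dMSN 1 and 2, against 51.8 CPM in yMSN.

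Beside Ngfr, the lists of cells known for p75 did not all move alike. The 7 endothelium and pericyte markers summed to 92.7 and 109 CPM in dMSN 1 and 2, against 471 CPM in yMSN and 257 CPM in SP. The 8 peripheral sensory markers summed to 26.4 and 20.4 CPM in dMSN, against 63.0 CPM in yMSN and 55.7 CPM in SP, where Trpv1 was at 0. The 7 meningeal and fibroblast markers summed to 85.2 and 84.0 CPM in dMSN, against 13700 CPM in yMSN and 1700 CPM in SP. In the radial glia list, Hes5 was higher in dMSN 1 and 2 than in yMSN, at 35.6 and 28.3 CPM against 8.38 CPM. Fabp7 was higher in yMSN, at 285 CPM, than in SP, at 212 CPM. The sum of the radial glia list still fell with stage, at 224 and 207 CPM in dMSN, against 1380 CPM in yMSN and 3140 CPM in SP. By contrast, the 8 markers of Schwann cells and olfactory ensheathing glia summed to 177 and 163 CPM in dMSN, against 160 CPM in yMSN and 72.4 CPM in SP, so Ngfr was lower while that list was not.

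**Figure D2:**
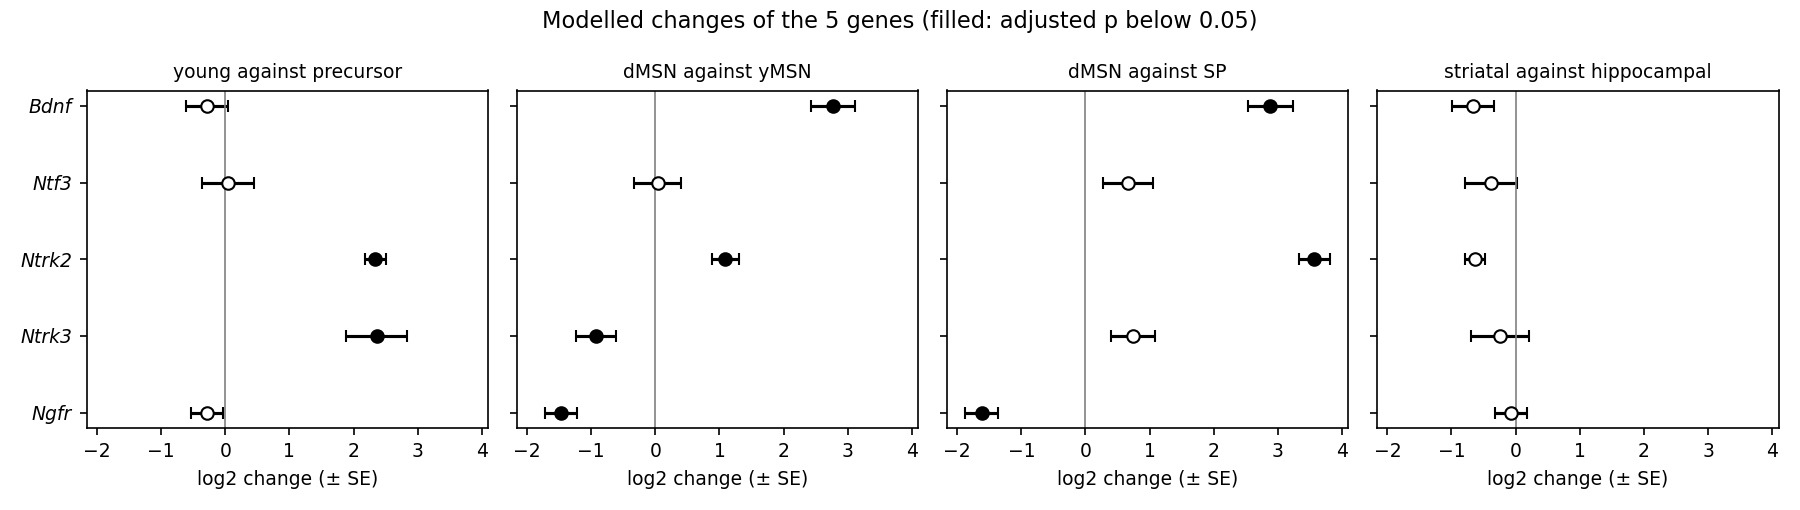
Log2 change (horizontal axis, bars are the SE) of the 5 genes in young against precursor, dMSN against yMSN, dMSN against SP, and striatal against hippocampal, with filled points past an adjusted p of 0.05. The Trk receptors are filled in young against precursor, Bdnf and Ntrk2 are filled on the right and Ngfr on the left in both dMSN comparisons, and striatal against hippocampal has no filled point.

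Setting ligand against receptor within a library removes library scaling when the ratio is compared between libraries. It also removes gene length, provided that each gene keeps the same mix of transcripts, which was not tested. For BDNF and TrkB, the balance of transcripts shifted to the receptor in young tissue and part of the way back in dMSN. Per 100 counts of Ntrk2 there were 9.65 counts of Bdnf in SP, 11.6 in HP, 1.86 in yMSN, 1.60 in yCA, and 4.95 and 7.10 in dMSN 1 and 2. On the log2 scale the Bdnf/Ntrk2 ratio differed by -2.37 in yMSN over SP and by -2.86 in yCA over HP, and was 1.67 units higher in the dMSN mean than in yMSN, beside an SD of 0.369 over the dMSN pair. The young libraries lay below all others, and dMSN lay between them and the precursors.

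For NT3 and TrkC the picture was less even. Per 100 counts of Ntrk3 there were 32.8 counts of Ntf3 in SP, 88.8 in HP, 15.9 in yMSN, 7.40 in yCA, and 45.9 and 22.3 in dMSN 1 and 2. The young libraries were again the lowest, but the dMSN libraries lay on either side of SP. The SD over the dMSN pair, 0.737 on the log2 scale, compares with a difference of 1.01 between the dMSN mean and yMSN, so that step is not clear of the replicate spread.

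The ratios between receptors also changed. Ntrk2 had 0.88 counts per count of Ngfr in SP and 1.31 in HP, 5.45 in yMSN and 8.01 in yCA, and 27.6 and 38.9 in dMSN 1 and 2. This ratio moved one way through all 3 stages, 2.63 log2 units higher in yMSN than in SP, 2.61 units higher in yCA than in HP, and 2.59 units higher in the dMSN mean than in yMSN, with an SD of 0.348 over the dMSN pair. Ntrk2 over Ntrk3 gave 4.75 in SP, 11.5 in HP, 8.41 in yMSN and 6.20 in yCA, and 47.3 and 26.1 in dMSN 1 and 2. There was no common direction between precursor and young tissue in that ratio, and both dMSN libraries lay above the rest.

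Among the 7 ratios, Bdnf over Ngfr differed most between dMSN and yMSN, while Ntrk2 over Ngfr differed most between dMSN and SP, by 5.22 log2 units against 4.52 for Bdnf over Ngfr. Per 100 counts of Ngfr there were 8.50 counts of Bdnf in SP, 15.2 in HP, 10.2 in yMSN, 12.8 in yCA, and 137 and 276 in dMSN 1 and 2, a dMSN mean 4.26 log2 units above yMSN with an SD of 0.718. Between the ligands, Bdnf had 1.40 counts per count of Ntf3 in SP, 1.5 in HP, 0.984 in yMSN and 1.34 in yCA, and 5.10 and 8.32 in dMSN 1 and 2. No test was made of these ratios, which describe single libraries.

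**Figure D3:**
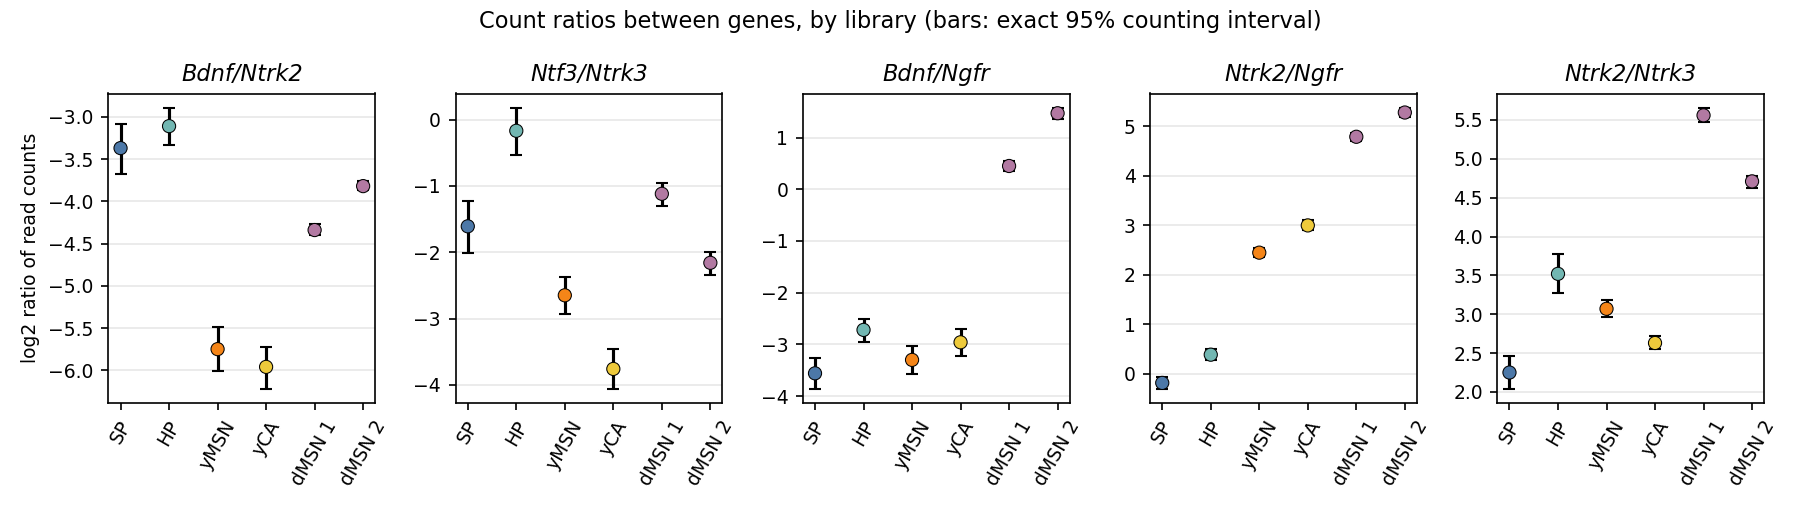
Log2 ratio of read counts between pairs of the 5 genes in each of the 6 libraries, with bars giving the exact 95% counting interval. Bdnf/Ntrk2 is lowest in yMSN and yCA, at 1.86 and 1.60 counts per 100, and Ntrk2/Ngfr steps up at each stage to 27.6 and 38.9 in dMSN.

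Ntf5, which encodes another ligand of TrkB, had few counts, at 0.957 CPM in SP, 1.75 CPM in HP, 1.36 CPM in yMSN, 0.334 CPM in yCA, and 0.565 and 0.371 CPM in dMSN 1 and 2. It fell by 1.53 in dMSN against yMSN (SE 0.523, adjusted p = 0.021), and did not pass with DESeq2 (-1.49, adjusted p = 0.37).

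The wider neurotrophin pathway was read in the same fits, in lists of related genes. Over all genes, 21.7% were higher and 13.7% lower in young against precursor, and 32.1% were higher and 35.4% lower in dMSN against yMSN, and a list count near these shares is no result about its list. Among other receptors and co-receptors, 6 of 9 rose in young against precursor tissue, with a median of 1.45 beside 0.10 over all genes, and Sorcs1, Nradd and Sort1 did not pass. Lingo1 and Rtn4r, p75 partners in Nogo signalling, rose by 3.31 (SE 0.319, adjusted p = 0.0027, edgeR) and 2.94 (SE 0.419, adjusted p = 0.0066). Sorcs3, of the sortilin family, rose by 2.94 (SE 0.377), and Kidins220, a scaffold substrate of Trk receptors, by 2.03 (SE 0.318). In dMSN against yMSN 5 of the 9 rose and 2 fell, with a median of 0.69 beside -0.11 over all genes, and 3 rose in the fits with lineage and stage terms. Rtn4r rose by a further 3.75 (SE 0.257) and Lingo1 by 2.43 (SE 0.228), while Nradd, a p75 homologue, fell by 1.96 (SE 0.275) and Kidins220 by 1.27 (SE 0.211).

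Among genes of neurotrophin processing and release, 4 of 8 rose in young against precursor tissue, beside 21.7% of all genes, and none fell, with a median of 1.04. Cadps2, which serves the release of dense-core vesicles, rose by 1.64 (SE 0.419), Cpe, a sorting receptor and carboxypeptidase for pro-BDNF, by 1.58 (SE 0.267), Hap1, which carries BDNF vesicles along axons, by 1.40 (SE 0.227), and the convertase Pcsk1 by 1.17 (SE 0.319). The count was 2 without dMSN 1 and 2 without dMSN 2, where Cadps2 and Pcsk1 no longer passed. In dMSN against yMSN 4 rose and 3 fell, beside 32.1% and 35.4% of all genes, with a median of 0.21. With lineage and stage terms 1 of the 8 fell, and in those fits without dMSN 1 or without dMSN 2 the rises came to 1 and the falls to 0. Cpe rose by 3.02 (SE 0.277) to 2690 and 3110 CPM in dMSN 1 and 2, against 359 CPM in yMSN, and Pcsk1 rose by 1.52 (SE 0.360). The convertases Pcsk5, Furin and Pcsk6 fell by 1.47 (SE 0.296), 1.24 (SE 0.201) and 0.96 (SE 0.239).

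Adaptors and effectors below Trk and p75 moved in both directions. In young against precursor tissue 5 of 25 rose and 2 fell with a median of 0, beside 21.7% and 13.7% of all genes, so the list lay near the background. The balance depended on the fit. Relative log expression (RLE) scaling gave 2 rises and 4 falls, DESeq2 gave 4 rises and 5 falls, and the fit with 1 mean per cell group gave 8 rises and 5 falls. Leaving out HP, yCA, dMSN 1 or dMSN 2 gave 1 rise each, and the falls came to 0 without dMSN 1 or without dMSN 2. Pik3r1, the regulatory subunit of phosphoinositide kinase, rose by 1.56 (SE 0.206), the docking protein gene Gab2 by 1.04 (SE 0.252) and the adaptor gene Frs3 by 0.84 (SE 0.237). The kinase gene Mapk3 and Bex1 each rose by 0.59, and Traf6 and Shc2 fell by 0.83 (SE 0.166) and 0.63 (SE 0.159). Shc3, a neuronal Shc adaptor, was at 1.03 (SE 0.368) and did not pass. In dMSN against yMSN 9 rose and 12 fell, with a median of -0.14. The Shc1 adaptor fell by 2.94 (SE 0.198) to 9.61 and 8.88 CPM in dMSN 1 and 2, against 70.8 CPM in yMSN, and Gab2 fell by 2.18 (SE 0.203). The kinase gene Map2k1 rose by 2.94 (SE 0.265), and Ngfrap1, whose product binds the p75 death domain, rose by 1.96 (SE 0.234).

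Genes that Trk signalling or neuronal activity is known to induce were the group with the largest median in dMSN against yMSN among the 6. There, 11 of 13 rose and 1 fell, with a median of 3.65 beside -0.11 over all genes. Arc, an activity-regulated synaptic gene, had 281 and 406 CPM in dMSN 1 and 2, against 3.64 CPM in yMSN, a rise of 6.56 on the log2 scale (SE 0.346, adjusted p = 1.3e-08, edgeR). Vgf, a neuropeptide precursor, had 545 and 495 CPM, against 9.72 CPM in yMSN, a rise of 5.74 (SE 0.281, adjusted p = 7.5e-09). The transcription factor genes Egr2 and Junb rose by 5.29 (SE 0.572) and 5.06 (SE 0.344). The gene that fell was Spry4, an inhibitor of receptor tyrosine kinase signalling, by 1.21 (SE 0.250). The sum of the neuron markers moved the same way, at 6210 and 8000 CPM in dMSN 1 and 2, against 1440 CPM in yMSN. Among them Tubb3 was lower, at 918 and 855 CPM against 1100 CPM. The part of these markers was not tested.

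In young against precursor tissue 7 of the same 13 rose and 1 fell, with a median of 0.88. Vgf rose by 3.56 (SE 0.202), Npas4 by 3.03 (SE 0.312), Fos by 1.85 (SE 0.362) and Egr1 by 1.49 (SE 0.303), and Dusp6, a phosphatase of the kinase Erk, fell by 1.24 (SE 0.340). With limma voom 2 of the 13 rose, with Fos at an adjusted p of 0.066 and Egr1 at 0.056. Without both dMSN libraries the count of rises was 3. The fall of Dusp6 did not pass without HP, without dMSN 1 or without dMSN 2.

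Of 10 genes of other trophic families, 1 rose and 1 fell in young against precursor tissue, beside 21.7% and 13.7% of all genes. The neurturin receptor gene Gfra2 rose by 2.53 (SE 0.326), and the ciliary neurotrophic factor receptor gene Cntfr fell by 1.22 (SE 0.203). Gdnf, at -1.14 (SE 0.379), and Artn, at 0.60 (SE 0.401), did not pass. The count of falls was 3 with RLE scaling and with DESeq2, 2 without HP or without yCA, and 4 without SP or without yMSN. In dMSN against yMSN 3 rose and 1 fell, beside 32.1% and 35.4% of all genes. Nrtn, the neurturin gene, rose by 3.07 (SE 0.426) to 19.8 and 11.6 CPM in dMSN 1 and 2, against 1.86 CPM in yMSN, beside Cntfr at 1.78 (SE 0.214) and Gfra2 at 1.34 (SE 0.247), and Il6st, a shared cytokine receptor subunit, fell by 1.37 (SE 0.189).

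**Figure D4:**
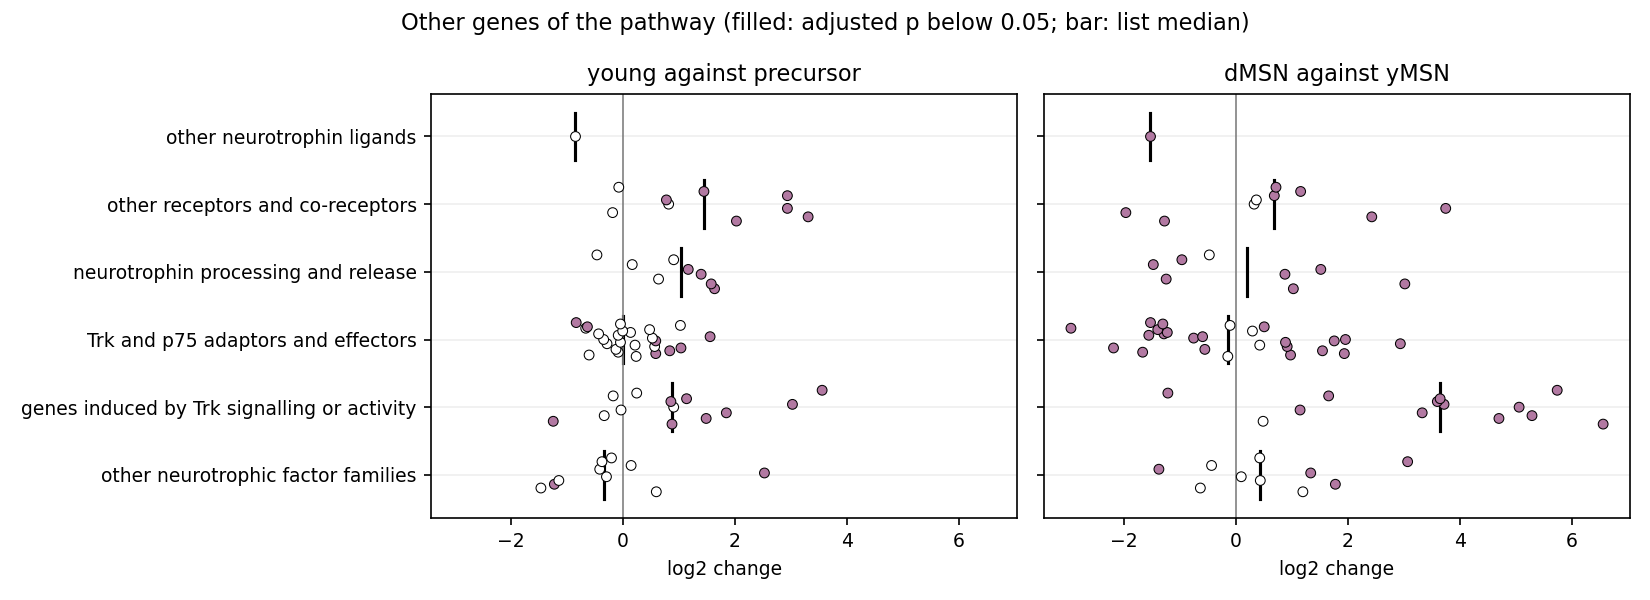
Log2 change (horizontal axis) of each gene in the 6 further lists, for young against precursor and for dMSN against yMSN, with filled points past an adjusted p of 0.05 and a bar at each list's median. Genes induced by Trk signalling or activity lie furthest right in dMSN against yMSN, with a median of 3.65 and Arc at 6.56, while adaptors and effectors lie on both sides of 0.

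The genes whose profiles lay nearest to each of the 5 were read from the 6 libraries as a description, by the root mean square (RMS) difference of centred log2 levels among genes with a mean of at least 5 CPM. For Bdnf they were Asns, Tpi1 and Fam103a1, at RMS differences of 0.236, 0.250 and 0.272. For Ntrk2 they were Rasgef1b, Fam184b and Pde4b, at 0.182, 0.202 and 0.224. For Ntrk3 they were Nbea, Prkaa2 and Csrnp3, at 0.134, 0.181 and 0.182. Nbea, which encodes neurobeachin, shows the young peak at another scale, with 102 CPM in SP, 78.9 CPM in HP, 302 CPM in yMSN, 497 CPM in yCA, and 139 and 184 CPM in dMSN 1 and 2.

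For Ngfr the nearest profiles were Cul7, Efs and Ssh1, at 0.0982, 0.106 and 0.119. Cul7, which encodes a cullin of ubiquitin ligases, had 55.9 and 45.7 CPM in dMSN 1 and 2 and 123 to 168 CPM in the other 4 libraries. For Ntf3, whose level hardly moved, they were Rassf3, Wipi1 and Adck5, at 0.152, 0.162 and 0.165. With 6 libraries in 3 stages, many genes share such profiles, and likeness here describes only these libraries.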

How the data were processed

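The authors deposited raw read counts per gene symbol, 1 table for each of 6 polyA RNA libraries, with 5 summary lines that were left out. The submitters' processing notes list TopHat2 2.0.2, Bowtie 1.0.0 and HTSeq, with mm9 and NCBIM37 as builds, and the strand setting is not given in the sources used here. Reads outside genes made up 5.34% to 9.81%, ambiguous reads 1.38% to 2.01%, and multiply aligned reads 17.3% to 27.3%. Reads shared with other loci are not in these counts.

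The counts were tested in edgeR 4.0.16 under R 4.3.3, using TMM scaling (factors 0.79 to 1.18), filterByExpr and the quasi-likelihood F test with Benjamini-Hochberg adjustment at 0.05. Young against precursor and striatal against hippocampal came from lineage and stage terms over all 6 libraries (2 residual degrees of freedom). The dMSN comparisons used 1 mean per cell group (1 residual degree of freedom, from the dMSN pair). Pair ratios of single libraries use a prior count of 2 and an exact 95% interval. Likeness used log2 of CPM plus 0.5. Alternatives included limma 3.58.1 voom and DESeq2 1.42.0. The steps were tested on simulated counts.

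The 5 genes and the lists were chosen with earlier results of these data known. Named from each list were up to 4 genes with at least 1 CPM, by size of change, plus Ntf5 always. A pair of listed genes is not reported here, and the list counts leave them out. Slc17a7, Nbea and Cul7 were singled out after their values were seen, as were marker genes that went against the sum of their list. Pcsk6, Mapk3, Bex1, Traf6, Shc2, Spry4 and Dusp6 were named to complete small counts. RefSeq (GRCm38.p6) names matched 25575 of 34620 symbols.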

Additional observations from a re-analysis of the deposited data

Results flagged for a closer look

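For 4 of the 5 genes, the values of the single pairs had opposite signs, which the test of the difference itself did not support at the threshold (edgeR, fit with 1 mean per cell group, added after the data had been seen). The log2 change from precursor to young differed between the striatal and hippocampal pairs by 0.77 for Bdnf (SE 0.523, adjusted p = 0.56) and by 1.12 for Ntf3 (SE 0.617, adjusted p = 0.43). Read the other way, striatal over hippocampal differed between young and precursor tissue by 1.12 for Ntf3, by -1.42 for Ntrk3 (SE 0.540, unadjusted p = 0.022, adjusted p = 0.18) and by 0.27 for Ngfr (SE 0.431, adjusted p = 0.88). For Ntrk3 the ratio of yMSN over yCA was -0.93 (95% counting interval -1.06 to -0.80), where SP over HP was 0.49 (0.18 to 0.80). For Ngfr the ratios were 0.06 (-0.06 to 0.18) and -0.21 (-0.32 to -0.09). Each of these pairs is 1 library against 1, so library and cell group cannot be told apart.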

How the results depend on the processing

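Calls of Ntrk2 and Ntrk3 in young against precursor, and of Bdnf, Ntrk2 and Ngfr in both dMSN comparisons, held under each alternative that gave a test. Uncalled changes turned direction as follows. In young against precursor, Ntf3 went to -0.08 with relative log expression (RLE) scaling and -0.08 with DESeq2. Leaving out 1 library at a time there gave -0.51 (without SP) to 0.61 (without HP) for Ntf3, with -0.50 without yMSN. It gave -0.67 (without SP) to 0.10 (without HP) for Bdnf, with 0.01 without yCA, and -2.39 (without SP) to 0.50 (without HP) for Ntf5, with 0.40 without yCA. In striatal against hippocampal the ranges were -0.95 (without yCA) to 0.17 (without HP or SP) for Ntf3, -0.21 (without yMSN) to 0.06 (without HP or SP) for Ngfr, and -0.93 (without HP) to 0.49 (without yCA or yMSN) for Ntrk3. In dMSN against yMSN, Ntf3 went to -0.12 with upper quartile scaling, and to between -0.09 (without dMSN 1) and 0.16 (without dMSN 2). Ntrk3 passed in dMSN against SP without a filter (0.72, adjusted p = 0.049). Over the single genes and lists of the report, 64 values under an alternative no longer passed, 15 newly passed and 35 counts moved by over 1.5 times. In dMSN against yMSN these include Pcsk5, Furin, Nrtn, Gfra2, Nradd and Kidins220, which failed in at least 1 fit with lineage and stage terms. The cause of these changes was not tested.

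Over all genes, young against precursor gave 6798 calls, 4421 without both dMSN libraries, and 3590 to 7355 with 1 library left out, lowest without dMSN 1. Striatal against hippocampal gave 0, but 60 with DESeq2, 356 with 1 mean per cell group, and 0 to 1515 with 1 library left out, highest without SP. The count for dMSN against yMSN, 12948, was 6609 and 7073 with lineage and stage terms and without dMSN 1 or dMSN 2, an alternative added after the data had been seen. RLE scaling moved the young against precursor median of all genes to -0.02 from 0.10, and the share of calls that were higher to 52.4% from 61.3%. Upper quartile scaling moved the dMSN against yMSN median to -0.27 from -0.11.

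No paired analysis was possible because HP, SP, yMSN and yCA have replicate 1 only, so the groups compared share fewer than 2 numbers. Depth limits the low genes: Ntf3 had the lowest count of the 5, 75 in SP, and among the pathway genes Ntf5 had 13 counts in yCA, Egr2 13 and Npas4 18 in SP, and Nrtn 7 in yCA. Leaving out a dMSN library leaves the dMSN comparisons with 1 mean per cell group without residual degrees of freedom, so those give values with no test.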
